A study of Mus musculus with 4 samples.

Results

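Naive and recirculating T cells are known for a set of genes of which 7 (of the 31053 genes counted) were followed here in CD4 T cells from the lamina propria of the small intestine: Ccr7, S1pr1, Klf2, Lef1, Tcf7, Satb1 and Igfbp4. The rule takes these genes by name and uses no measured value. The cells came from 4 Rag1-/- mice, a strain lacking its own T and B cells, that had been irradiated and given 10000000 bone marrow cells. Wild type marrow carrying CD45.1 made up 50% of them and Bcl3-/- marrow carrying CD45.2 the other 50%, and the analysis was at week 16. Both donors' cells therefore developed in the same irradiated host, in which host cells other than T and B cells can remain. Live CD45+CD3+CD4+ cells were sorted after removal of the Peyer's patches, and barcoded antibodies to CD45.1 and CD45.2 marked the donor in the same droplet as the RNA. The labels do not say whether the recipients shared donor animals or were handled on the same day.

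The genes describe a circuit. CCR7 is the chemokine receptor that lets T cells enter lymph nodes, and S1PR1 senses sphingosine-1-phosphate and lets them leave. KLF2 is a transcription factor of resting T cells that drives S1pr1. LEF1 and TCF1, the product of Tcf7, are partner transcription factors that keep naive and memory T cells able to renew themselves, and TCF1 is also central to follicular helper T cells. SATB1 organizes chromatin in thymocytes and naive T cells, and Igfbp4 encodes a secreted protein that binds insulin-like growth factors and is often read as a marker of naive T cells. Cells that settle in tissue are known to lower several of these genes.

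Recipients 1, 2 and 4 gave 9301, 9244 and 1415 barcodes that passed the filters of 500 or more genes and no more than 10% mitochondrial counts, 19960 in all, with a median of 5932, 5782.5 and 5836 unique molecular identifiers (UMIs, each standing for 1 captured transcript). The donor was called where a barcode held at least 10 tag UMIs and a tag ratio of at least 4-fold. This gave 736, 851 and 102 CD45.1 cells and 8398, 8198 and 1289 CD45.2 cells. The 167, 195 and 24 barcodes with no donor call had median UMI counts of 10589, 10440 and 6072.5, were not used in donor comparisons, and were not examined further for doublets. Recipient 3 lies outside the rule: 2783 of its 3555 CD45.2 barcodes met several of the population criteria at once, and it enters only as an alternative. Any pair of the 4 libraries shared at most 26 barcode sequences. Counts at the 3' end of Bcl3 were 31.4, 21.6 and 13.8 CPM (counts scaled to a total of 1000000 in each sum) for CD45.1 cells from recipients 1, 2 and 4 and 76.2, 76.5 and 76.0 CPM for CD45.2 cells, higher in the cells labelled Bcl3-/-. The sources used here do not give the deleted part of the gene, so these counts do not check the genotype, and the donors are called by their CD45 tag.

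Barcodes were split into populations by transcripts that none of the 7 genes enters: at least 1 UMI of Foxp3 (the regulatory T cell factor), at least 3 of Il17a (the cytokine IL-17A), at least 3 of Ccl5 (a chemokine of effector T cells), or at least 1 of Cxcr5 (the receptor for B cell follicles), each without the other 3. These held 2689, 4580, 2263 and 832 barcodes, 13.5%, 22.9%, 11.3% and 4.17% of those kept. A further 7994 barcodes (40.1%) met no criterion and are called other cells, and 1602 (8.03%) met several and entered no population. Other cells made up 53.3% of the CD45.1 and 39.0% of the CD45.2 cells. At the edges, 637 barcodes had 2 Il17a UMIs against 276 with 3, 791 had 2 Ccl5 UMIs against 430 with 3, and 1315 of the barcodes with Foxp3 and 819 of those with Cxcr5 had a single UMI. Without several markers a barcode in these groups is only one with that transcript, and other cells can include cells whose marker was missed.

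In mouse build mm10 (GRCm38, GENCODE vM21) the genes lie on 4 chromosomes: S1pr1 at chr3:115710433-115715072 (minus strand), Lef1 at chr3:131110471-131224356 (plus), Klf2 at chr8:72319033-72321656 (plus), Tcf7 at chr11:52252371-52283014 (minus), Igfbp4 at chr11:99041244-99054392 (plus), Ccr7 at chr11:99144196-99155077 (minus) and Satb1 at chr17:51736187-51833290 (minus). Igfbp4 and Ccr7 are near neighbours, 89803 bases apart with only Tns4 between them. None of the 7 shares a chromosome with Ptprc, the CD45 gene that differs between the donors. Lef1 overlaps the gene Gm43352 on the opposite strand, and Tcf7 overlaps Gm26551 on its own and A630014C17Rik on the opposite strand, so reads of these pairs may not be fully separable.

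The 250 bases upstream of the members' annotated starts were searched on both strands for core letters of 2 kinds. These were the letters bound by KLF factors (CACCC or GGGTG) and by TCF1 and LEF1 (CTTTGA or TCAAAG). RefSeq windows (GRCm38.p6) were at hand for 5 of the 7 genes. The KLF letters stood in 12 of their 13 windows, against 52.0% of 32851 windows of all genes, and the TCF/LEF letters in 1, an internal start of Lef1, against 13.8% of all windows. Satb1 gave 5 and Lef1 4 of the 13 windows, and some of these overlap, so the same match can count more than once. The windows of all genes were not matched for base composition or windows per gene, so no enrichment is read from these shares. One window is shown for the factor genes Lef1 and Klf2 and for Igfbp4, which differed most between the donors, 5' to 3' on the gene's strand, with the KLF letters in capitals: Lef1 at chr3:131110047-131110296, Klf2 at chr8:72318812-72319061 and Igfbp4 at chr11:99040994-99041243. A letter match is a description of the sequence and no evidence of binding.
Lef1: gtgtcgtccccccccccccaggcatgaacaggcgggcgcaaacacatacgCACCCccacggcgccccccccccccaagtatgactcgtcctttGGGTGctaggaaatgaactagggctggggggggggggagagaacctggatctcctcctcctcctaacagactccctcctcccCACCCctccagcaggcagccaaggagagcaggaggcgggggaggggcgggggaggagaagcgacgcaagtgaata
Klf2: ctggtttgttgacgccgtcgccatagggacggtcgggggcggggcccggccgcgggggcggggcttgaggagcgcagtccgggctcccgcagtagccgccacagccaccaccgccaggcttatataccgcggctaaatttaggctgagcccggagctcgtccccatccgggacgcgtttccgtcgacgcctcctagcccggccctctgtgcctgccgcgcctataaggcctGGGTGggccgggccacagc
Igfbp4: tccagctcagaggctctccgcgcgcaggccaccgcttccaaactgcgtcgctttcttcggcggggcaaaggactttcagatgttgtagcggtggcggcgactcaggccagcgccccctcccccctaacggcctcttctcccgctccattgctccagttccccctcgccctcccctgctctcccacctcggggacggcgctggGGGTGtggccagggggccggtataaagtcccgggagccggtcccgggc

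All 7 genes were lower in CD45.2 than in CD45.1 cells when all cells of each donor were summed, and the size of the difference set the genes apart from one another. Igfbp4 differed most, Tcf7 least. Background over all genes was 6.16% called lower and 6.7% called higher (edgeR quasi-likelihood test with the recipient as block, Benjamini-Hochberg adjusted p under 0.05 over 10694 genes). The median log2 fold change, CD45.2 minus CD45.1, was -2.06 over the 7 genes and -0.0015 over all genes tested. In these sums fewer cells with a transcript and fewer transcripts per cell cannot be told apart. The per-cell shares are given further on. Where the donors' values are said to be apart or not to overlap, here and below, this is a description. The share of all genes that separate in the same way is not given.

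Ccr7, the entry receptor, measured 227, 95.7 and 67.4 CPM for CD45.1 cells from recipients 1, 2 and 4 and 42.2, 41.5 and 10.9 CPM for CD45.2 cells. Every CD45.1 value lay above every CD45.2 value, although recipient 4 was low for both donors. The log2 fold change was -2.06 (SE 0.23, edgeR adjusted p = 3.3e-04). S1pr1, the exit receptor, measured 193, 79.4 and 211 CPM against 36.2, 31.3 and 49.6 CPM. Its groups did not overlap either, and recipient 2 was the lowest for both donors. The log2 fold change was -2.09 (SE 0.18, edgeR adjusted p = 8.1e-05).

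Klf2, the factor upstream of S1pr1, measured 531, 259 and 498 CPM in CD45.1 and 125, 137 and 108 CPM in CD45.2 cells. The CD45.2 values were close to each other and all below the lowest CD45.1 value, which was recipient 2. Its log2 fold change was -1.85 (SE 0.21, edgeR adjusted p = 3.6e-04). Lef1 measured 311, 108 and 197 CPM against 52.3, 36.4 and 54.4 CPM. Recipient 2 again had the smallest contrast, without overlap of the groups. Its log2 fold change was -2.18 (SE 0.17, edgeR adjusted p = 5.5e-05).

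Tcf7 behaved differently from its partner Lef1. Its levels were 390, 281 and 426 CPM in CD45.1 and 223, 195 and 333 CPM in CD45.2 cells. Within each recipient the CD45.2 cells were lower, but the groups overlapped, since the CD45.2 cells of recipient 4 lay above the CD45.1 cells of recipient 2. The log2 fold change was -0.72 (SE 0.09, edgeR adjusted p = 5.2e-04). Satb1, at 397, 296 and 295 CPM against 219, 212 and 130 CPM, did not overlap (log2 fold change -0.94, SE 0.12, edgeR adjusted p = 5.9e-04). Igfbp4 fell from 133, 30.4 and 82.7 CPM to 12.1, 1.14 and 2.53 CPM, with no overlap. Its estimate of -4.12 (SE 0.23, edgeR adjusted p = 9.0e-06) rested on 638, 58 and 19 UMIs in the CD45.2 cells. Without the recipient block 4 of the 7 kept their call; Ccr7 (adjusted p = 0.068), Satb1 (0.055) and Tcf7 (0.138) did not.

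Genes of the same programmes that were listed for comparison followed in part. The lists were chosen with earlier results of these data known, and only called genes are named. Their counts are therefore a description and no independent support. Of 12 recirculation genes, 6 fell and 0 rose, among them Klf3 (a repressor of the KLF family; log2 fold change -1.14, SE 0.07), with a list median of -0.23. Of 18 naive and quiescence genes, 12 fell and 0 rose, among them Dapl1 (-4.34), Treml2 (-2.46), Cmah (-1.91) and Bach2, a repressor of effector differentiation (-1.47), with a list median of -0.75. Of 15 measured effector and residence genes, 8 rose, among them Ccr9, the receptor for homing to the small intestine (1.14, SE 0.10), Prdm1, the gene of BLIMP-1 (0.98), and Maf (0.86). One of them fell, the integrin gene Itga1 (-0.91), and the list median was 0.39. Lists of other material did not all stay level. The dissociation and stress list summed to 7072, 8420 and 4311 CPM in CD45.1 and 9253, 9400 and 4236 CPM in CD45.2 cells of recipients 1, 2 and 4. Of its 12 genes, 3 rose and 2 fell. The innate lymphoid list summed to 119, 128 and 145 CPM in CD45.1 and 203, 178 and 228 CPM in CD45.2 cells, and the B cell list to 60.2, 1396 and 16.8 CPM against 143, 651 and 18.5 CPM. The part of these lists in the members' difference was not tested.

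**Figure D1:**
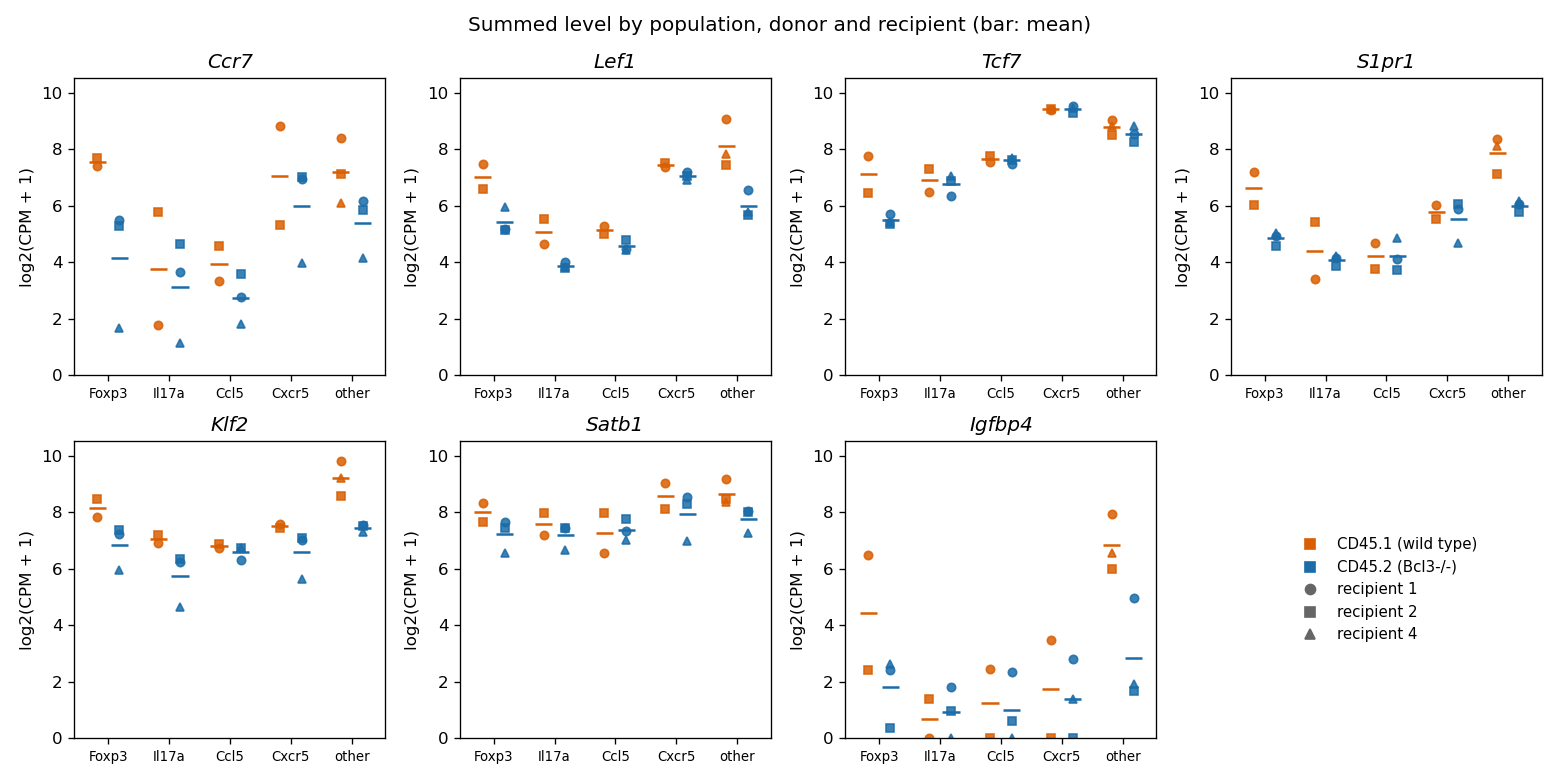
Level of each of the 7 genes as log2(CPM + 1) (vertical axis), in the 5 populations (horizontal axis), by donor (colour) and recipient (symbol), for sums of at least 20 cells; bars are means. Lef1, S1pr1, Klf2 and Igfbp4 separate the donors in other cells, while Tcf7 separates the populations more than the donors.

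Within the other cells all 7 genes were again lower in CD45.2 than in CD45.1 cells. This fit held 11 recipient and population pairs, 3 of them other cells, and called 3.31% of 10809 genes lower there. The median log2 fold change was -1.97 over the 7 genes and 0.02 over all genes. S1pr1 was at 327, 138 and 272 CPM in CD45.1 and at 65.2, 54.1 and 71.1 CPM in CD45.2 other cells of recipients 1, 2 and 4. The donors did not overlap (log2 fold change -2.03, SE 0.18, edgeR adjusted p = 7.2e-08). Klf2 was at 896, 379 and 592 CPM against 184, 180 and 156 CPM, again apart (log2 fold change -1.90, SE 0.16, edgeR adjusted p = 4.4e-08).

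Lef1 went from 529, 171 and 226 CPM to 92.0, 49.5 and 54.5 CPM in other cells (log2 fold change -2.30, SE 0.15, edgeR adjusted p = 6.6e-10). Each CD45.1 value was above all CD45.2 values, and recipient 1 was highest for both donors. Igfbp4 went from 242, 62.3 and 92.7 CPM to 30.5, 2.21 and 2.77 CPM, an estimate of -4.0 (SE 0.26, edgeR adjusted p = 7.6e-10). The groups were apart, and the CD45.2 value of recipient 1 stood above those of the other two recipients. Ccr7 measured 335, 139 and 66.5 CPM against 71.6, 56.1 and 16.6 CPM. Its groups overlapped, since recipient 4 was low for both donors, and its estimate was -1.97 (SE 0.27, edgeR adjusted p = 3.9e-05). Satb1 measured 568, 352 and 326 CPM against 264, 258 and 152 CPM, without overlap (log2 fold change -1.01, SE 0.16, edgeR adjusted p = 1.8e-04).

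For Tcf7 the other cells showed little difference: 518, 361 and 447 CPM in CD45.1 against 370, 302 and 452 CPM in CD45.2 cells. Recipient 4 had no decrease, and the groups overlapped. Its estimate of -0.41 (SE 0.11; edgeR, adjusted p = 0.0205) lost its call without recipient 1 (-0.27, adjusted p = 0.145), without recipient 2 (-0.44, adjusted p = 0.054), with DESeq2 (-0.42, adjusted p = 0.102) and without the pairing of donors as a block (-0.40, adjusted p = 0.387). Without that block Satb1 was not called either (-1.05, adjusted p = 0.054). DESeq2 also left Ccr7 uncalled there (-2.0, adjusted p = 0.087). Among the comparison genes of other cells, 6 of 12 recirculation and 9 of 18 naive and quiescence genes fell and none rose, while 9 of 15 effector and residence genes rose and 0 fell, where 4.12% of all genes were called higher. Ccr9 had a log2 fold change of 1.38 (SE 0.17).

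In Foxp3 cells 5 of the 7 genes were lower in CD45.2 cells, against 0.407% of all genes, with a median log2 fold change of -2.05 over the 7 and 0.08 over all genes. Only recipients 1 and 2 had enough CD45.1 Foxp3 cells, 49 and 37. Tcf7, which differed least in other cells, measured 218 and 85.6 CPM in the CD45.1 Foxp3 cells of these 2 recipients and 51.0 and 39.6 CPM in the CD45.2 ones. Both CD45.1 values were above both CD45.2 values. Its estimate was -1.79 (SE 0.22, edgeR adjusted p = 8.2e-05). Lef1 measured 178 and 94.2 CPM against 34.8 and 34.2 CPM, also apart (log2 fold change -2.05, SE 0.29, edgeR adjusted p = 3.3e-04).

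The receptors differed in the Foxp3 cells as well. Ccr7 measured 169 and 206 CPM against 43.8 and 38.3 CPM (log2 fold change -2.22, SE 0.43, edgeR adjusted p = 0.0101), and S1pr1 145 and 64.2 CPM against 29.4 and 23.0 CPM (-2.05, SE 0.37, edgeR adjusted p = 0.0054). Neither pair of groups overlapped, though each group held only the values of recipients 1 and 2. Igfbp4 was called (log2 fold change -4.29, SE 0.64, edgeR adjusted p = 7.8e-04), but this rests on recipient 1, with 29 UMIs in 49 CD45.1 cells against 28 in 1104 CD45.2 cells; recipient 2 had 1 UMI against 2. Klf2 (-0.91, SE 0.25, edgeR adjusted p = 0.103) and Satb1 (-0.52, SE 0.26, edgeR adjusted p = 0.478) were not called. One barcode among the 37 CD45.1 Foxp3 cells of recipient 2 carried B and plasma cell genes and 9.83% of that sum's UMIs; with such barcodes left out the same number, 5, was called.

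These Foxp3 calls are less firm than those of other cells. Without recipient 1, Tcf7 (-1.23, adjusted p = 0.085) and Igfbp4 (-3.87, adjusted p = 0.686) were not called. With at least 2 Foxp3 UMIs asked for, only Tcf7 was; Lef1 had -1.46 (adjusted p = 0.111), Ccr7 -1.62 (adjusted p = 0.238), S1pr1 -1.05 (adjusted p = 0.605) and Igfbp4 -4.37 (adjusted p = 0.628). DESeq2 did not call Ccr7 (adjusted p = 0.311), and Lef1 was not called after thinning to 3000 UMIs per barcode (-0.92, adjusted p = 0.521). Cd4 transcripts were found in 39.1% and 40.0% of CD45.1 but 61.7% to 69.1% of CD45.2 Foxp3 cells at that depth; its part in the result was not tested.

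In Il17a, Ccl5 and Cxcr5 cells none of the 7 genes was called for the donor by edgeR, where 0.0555%, 0.444% and 0.0185% of all genes were called lower. Lef1 in Il17a cells was at 24.0 and 44.7 CPM in the CD45.1 and 15.3 and 12.7 CPM in the CD45.2 cells of recipients 1 and 2. The 2 donors were apart, yet the difference did not pass (log2 fold change -1.36, SE 0.36, edgeR adjusted p = 0.246). In Cxcr5 cells Tcf7 stood at 669 and 684 CPM in CD45.1 and at 736 and 619 CPM in CD45.2 cells, with a log2 fold change of -0.02 (SE 0.15). The CD45.2 values lay on both sides of the CD45.1 values. S1pr1 in Cxcr5 cells had a log2 fold change of 0.01 (SE 0.43) and in Ccl5 cells of -0.41 (SE 0.39). Ccr7 had log2 fold changes of -0.74 (SE 0.61) in Il17a, -1.02 (SE 0.61) in Ccl5 and -1.16 (SE 0.39) in Cxcr5 cells. In Il17a and Cxcr5 cells recipients 1 and 2 went opposite ways. Il17a cells had 2.40 (1 UMI) and 54.2 CPM of Ccr7 in CD45.1 against 11.5 and 23.8 CPM in CD45.2. Cxcr5 cells had 449 (46 cells) and 38.7 CPM (6 UMIs in 22 cells) against 121 and 129 CPM. Ccl5 cells had 9.04 and 22.8 CPM against 5.84 and 10.9 CPM. Igfbp4 had log2 fold changes of 0.74 (SE 1.82) in Il17a, 0.04 (SE 1.00) in Ccl5 and -0.85 (SE 1.20) in Cxcr5 cells. Klf2 in Il17a cells had -0.79 (SE 0.26, edgeR adjusted p = 0.457). In these populations the median was -0.74, -0.34 and -0.33 over the 7 genes and 0.04, 0.01 and 0.07 over all genes. A missed threshold does not show that the donors were alike. Without recipient 1, 4 genes were called lower in Il17a cells and 1 in Ccl5 cells, and without recipient 2, 1 in Cxcr5 cells. The shares of all genes called in these reduced fits are not given here.

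**Figure D2:**
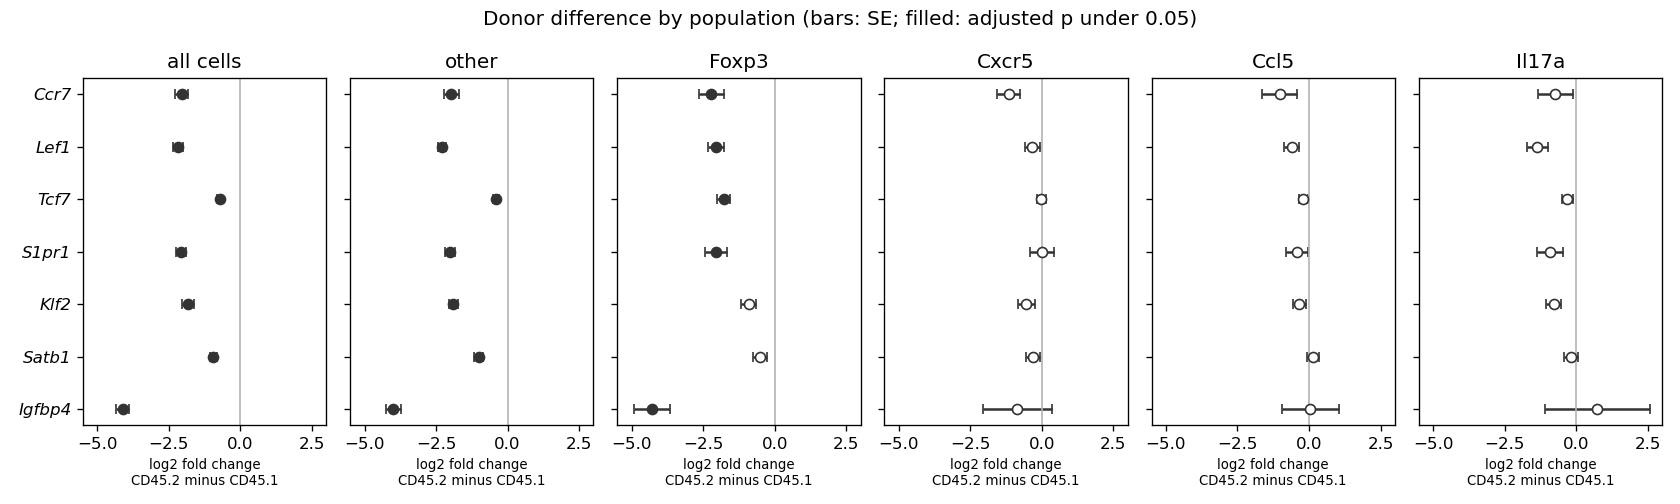
Log2 fold change, CD45.2 minus CD45.1, of each gene (horizontal axis) in all cells and in the 5 populations, with the SE; filled points passed an adjusted p of 0.05 in edgeR. All 7 points are filled in all cells and in other cells, 5 in Foxp3 cells and 0 in Cxcr5, Ccl5 and Il17a cells.

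Whether the donor difference itself varied between populations was tested directly. For 5 of the 7 genes it did (edgeR F test over the 5 donor coefficients; 0.435% of all genes called): Lef1 (adjusted p = 0.0024), Tcf7 (0.012), Klf2 (0.0208), Igfbp4 (0.0239) and S1pr1 (0.0329). For Tcf7 the difference was larger in Foxp3 cells (-1.79) than in other cells (-0.41), while for Klf2 the order was the other way round (-0.91 and -1.90). These 2 orders were read from the coefficients and not tested pair by pair. Ccr7 (adjusted p = 0.744) and Satb1 (adjusted p = 0.223) did not pass. Without recipient 4 the test called 3 of the 7.

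The levels of the genes also ordered the populations. Among CD45.2 cells, where all 5 populations had enough cells in every recipient, all 7 genes were lower in Foxp3, in Il17a and in Ccl5 cells than in other cells, against 12.7%, 13% and 6.75% of 11186 genes. Tcf7 gave the widest order: 736, 619 and 697 CPM in the Cxcr5 cells of recipients 1, 2 and 4, then 370, 302 and 452 CPM in other, 176, 197 and 207 CPM in Ccl5, 80.4, 116 and 132 CPM in Il17a and 51.0, 39.6 and 41.4 CPM in Foxp3 cells. No neighbours in this order overlapped. Against other cells the log2 fold changes were 0.89 (SE 0.12) in Cxcr5 cells and -3.04 (SE 0.15) in Foxp3 cells, with edgeR adjusted p = 1.4e-05 and 1.3e-11. Over the 7 genes the median was -0.82 in Foxp3, -1.97 in Il17a, -1.48 in Ccl5 and 0.27 in Cxcr5 cells, where the medians of all genes lay between -0.0067 and 0.00071.

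Lef1 also had Cxcr5 cells on top among CD45.2 cells, at 143, 130 and 119 CPM, but differed from Tcf7 lower down. Il17a cells were lowest at 15.3, 12.7 and 13.1 CPM, and Foxp3 cells lay above Ccl5 cells (21.3, 26.2 and 20.4 CPM). Only the second place was shared: other cells (92.0, 49.5 and 54.5 CPM) and Foxp3 cells (34.8, 34.2 and 60.7 CPM) overlapped. The log2 fold change against other cells was 0.99 (SE 0.17) for Cxcr5 and -2.28 (SE 0.19) for Il17a cells, both called by edgeR. Ccr7 was also higher in Cxcr5 cells, at 121, 129 and 14.7 CPM against 71.6, 56.1 and 16.6 CPM in other cells. Recipient 4 did not share that rise, and the ranges of all neighbours in the Ccr7 order overlapped. Its log2 fold change was 0.88 (SE 0.20, edgeR adjusted p = 0.0026), and DESeq2 did not call it (0.57, adjusted p = 0.441).

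So 3 of the 7 genes were higher in Cxcr5 than in other cells, where 13% of all genes were higher, and 2 were lower, where 14.1% were. The lower ones were Klf2 (log2 fold change -0.69, SE 0.18, edgeR adjusted p = 0.0076) and Igfbp4 (-2.26, SE 0.50, edgeR adjusted p = 0.0021). S1pr1 (-0.18, SE 0.15, edgeR adjusted p = 0.438) and Satb1 (0.27, SE 0.11, edgeR adjusted p = 0.084) were not called. DESeq2 called neither Klf2 (adjusted p = 0.072) nor Igfbp4 (adjusted p = 0.074), and without recipient 1 a single gene was lower. With at least 2 Cxcr5 UMIs, 1 gene was higher.

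The effector populations differed in how low each gene lay. Ccl5 cells of the CD45.2 donor had the lowest mean Ccr7, at 5.84, 10.9 and 2.55 CPM (log2 fold change -2.97, SE 0.29), overlapping the 11.5, 23.8 and 1.19 CPM of Il17a cells. Il17a cells had the lowest mean S1pr1, at 16.6, 13.6 and 17.9 CPM (-2.04, SE 0.14), a value that overlapped with the 16.2, 12.3 and 28.1 CPM of Ccl5 cells. Klf2 in CD45.2 cells ran from 184, 180 and 156 CPM in other cells to 74.1, 79.5 and 23.8 CPM in Il17a cells (-1.46, SE 0.17), with every pair of neighbours overlapping. Satb1 had differences between -0.47 and -0.65 in Ccl5, Foxp3 and Il17a cells. In Ccl5 cells DESeq2 did not call Klf2 (-0.87, adjusted p = 0.125) or Igfbp4 (-2.34, adjusted p = 0.067), and without recipient 1 Satb1 was not called (-0.30, adjusted p = 0.233). In Foxp3 cells DESeq2 did not call Ccr7 (adjusted p = 0.063), Klf2 (adjusted p = 0.223) or Igfbp4 (adjusted p = 0.150). Without recipient 1, 4 of the 7 were lower in Foxp3 cells, with Lef1 at -0.33 (adjusted p = 0.203), Klf2 at -0.60 (adjusted p = 0.067) and Igfbp4 left out by the filter on low counts.

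CD45.1 cells, fitted apart with 11 sums and 6844 genes, gave 6 genes lower in Il17a and 6 in Ccl5 cells than in other cells (4.37% and 1.75% of all genes), in each case all but Satb1 (edgeR adjusted p = 0.054 and 0.072). S1pr1 was at 9.61 and 41.5 CPM in Il17a and 24.4 and 12.4 CPM in Ccl5 cells of recipients 1 and 2, far below the 327 and 138 CPM of other cells. In Foxp3 cells 2 were lower (0.687% of all genes): Tcf7 (log2 fold change -1.59, SE 0.32, edgeR adjusted p = 0.0165) and Igfbp4 (-1.92, SE 0.37, edgeR adjusted p = 0.0126). In Cxcr5 cells 3 were lower (1.75% of all genes), Klf2 (-1.91, SE 0.39), S1pr1 (-2.21, SE 0.45) and Igfbp4, and 0 higher (1.27% of all genes). None of these 3 Cxcr5 calls held after thinning. Igfbp4 was nearly absent from these CD45.1 cells outside the Foxp3 and other groups, with 1 UMI in Il17a, 5 in Ccl5 and 4 in Cxcr5 cells of recipients 1 and 2 together. In CD45.1 Foxp3 cells it had 29 UMIs in recipient 1 (87.7 CPM) but 1 UMI in recipient 2 (4.28 CPM). Without a filter on low counts 6 of the 7 were lower in CD45.1 Foxp3 cells.

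To separate the number of cells with a transcript from the amount per cell, every barcode was thinned to 3000 UMIs, which left out 53, 57 and 9 CD45.1 and 713, 591 and 184 CD45.2 barcodes. Shares of barcodes with a transcript were higher in CD45.1 cells for each gene in each recipient. Igfbp4 was found in 16.7%, 4.03% and 9.68% of CD45.1 and in 1.25%, 0.197% and 0.452% of CD45.2 barcodes of recipients 1, 2 and 4. The exact binomial 95% interval for the 16.7% runs from 14% to 19.7% and covers counting error only. Before thinning the shares in recipient 1 were 20.0% and 1.51%. Klf2 ranged from 26.1% to 41.4% in CD45.1 and from 11.5% to 17.4% in CD45.2 barcodes, and Lef1 from 18.5% to 40.0% and from 8.58% to 12.4%, with no overlap of the donors. For Tcf7 the mean shares were 55.3% (SD 6.94) and 36.9% (SD 7.17, n = 3), also without overlap.

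The amount per positive barcode was apart between the donors for some genes only. Barcodes with Klf2 held on average 3.85 UMIs of it in CD45.1 and 2.50 in CD45.2 cells, and those with Lef1 2.14 and 1.34. The ranges over recipients were apart, at 3.16 to 4.23 against 2.38 to 2.71 for Klf2 and 1.90 to 2.40 against 1.28 to 1.45 for Lef1. For Tcf7 the averages were 2.13 and 2.07, with ranges of 1.81 to 2.53 and 1.76 to 2.36 that overlapped. Only 4 barcodes of myeloid type without CD3 transcripts were found, too few to measure free RNA. As a low reference, Igfbp4 was found in 0% to 0.217% of CD45.2 Il17a barcodes and Ccr7 in 0% to 1.65% of CD45.2 Ccl5 barcodes, at similar depth.

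Barcodes with several of the 7 genes were more common in the CD45.1 donor. At least 3 of them were found in 43.5% (297 of 683), 22.3% (177 of 794) and 35.5% (33 of 93) of the CD45.1 barcodes of recipients 1, 2 and 4 and in 11% (844 of 7685), 9.06% (689 of 7607) and 11% (122 of 1105) of the CD45.2 barcodes. All CD45.1 shares were above all CD45.2 shares, and recipient 2 had the lowest of each donor. The log2 odds of such a barcode were lower in CD45.2 cells in 3 of 3 recipients, by a mean of -2.11 (SD 0.56, n = 3; exact two-sided sign-flip permutation p = 0.25, the smallest that 3 recipients allow). Independent detection at the same single-gene shares would give 51.9%, 20.4% and 38.3% of CD45.1 barcodes with at least 3, so the observed shares exceeded it only in recipient 2, and 6.44%, 6.06% and 5.98% of CD45.2 barcodes, below the observed share in each. The excess lay at higher numbers. At least 5 of the 7 were found in 24.0%, 8.56% and 10.8% of CD45.1 barcodes, where independence would give 6.23%, 0.530% and 2.37%. In CD45.2 barcodes the shares were 2.07%, 0.946% and 0.995%, against 0.044%, 0.031% and 0.030%.

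**Figure D3:**
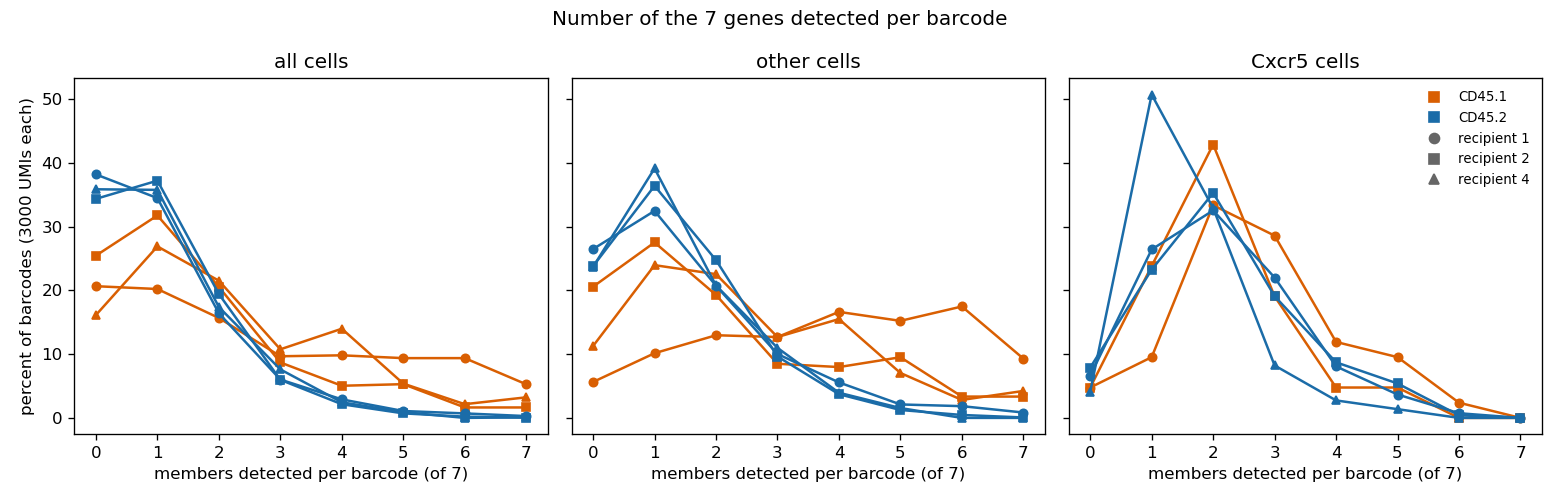
Percent of barcodes (vertical axis) by the number of the 7 genes detected after thinning to 3000 UMIs (horizontal axis), for all cells, other cells and Cxcr5 cells, by donor (colour) and recipient (symbol). CD45.1 lines have a long right side, above all in the other cells of recipient 1, where 71.3% of barcodes held 3 or more, while CD45.2 lines peak at 0 or 1 gene in all cells.

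Most of these barcodes were other cells. Other cells held 85.2%, 71.8% and 90.9% of the CD45.1 barcodes with at least 3 of the genes and 62.9%, 62.0% and 78.7% of the CD45.2 ones. Cxcr5 cells held 16.7%, 11.8% and 7.38% of the CD45.2 ones against 7.41%, 3.39% and 3.03% of the CD45.1 ones. Within other cells 71.3%, 32.6% and 42.3% of CD45.1 and 20.4%, 15.1% and 16.5% of CD45.2 barcodes had at least 3. Within Foxp3 cells it was 19.6% (9 of 46) and 20.0% (6 of 30) of CD45.1 barcodes in recipients 1 and 2 and 4.60%, 2.89% and 2.91% of CD45.2 barcodes. In Il17a cells the shares were 6.35% and 12% in CD45.1 and 2.70%, 3.59% and 3.12% in CD45.2 barcodes. The donors overlapped in the other two populations. In Ccl5 cells the CD45.1 shares were 3.73% (6 of 161) and 10.3% (23 of 224) in recipients 1 and 2, against 4.68%, 4.96% and 7.58% of CD45.2 barcodes. In Cxcr5 cells they were 52.4% (22 of 42) and 28.6% (6 of 21), against 34.5%, 33.6% and 12.3%.

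Pairs of the 7 genes were not equally tied. As a description, the share of barcodes with both genes was divided by the product of their single shares, and averaged over 3 recipients whose points share library and depth. The median over the 21 pairs was 1.66 (SD 0.17) in CD45.1 and 1.93 (SD 0.21) in CD45.2 cells. These medians pool all populations of a donor, so differences in level between populations can raise them. Ratios within single populations are not given here. S1pr1 with its known activator Klf2 had a ratio of 2.52 and 4.03 and the highest correlation of detection of all pairs, 0.56 in CD45.1 (0.47 to 0.60) and 0.35 in CD45.2 cells (0.25 to 0.47). Igfbp4 with S1pr1 reached 4.29 and 6.78, and Igfbp4 with Ccr7, its neighbour on chromosome 11, 3.87 and 9.31, from few Igfbp4 barcodes in CD45.2 cells. Tcf7 with Satb1, the 2 most widely found genes, lay lowest at 1.10 and 1.21. A ratio is bounded by the shares, so a widely detected gene cannot reach the values of a rare one.

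**Figure D4:**
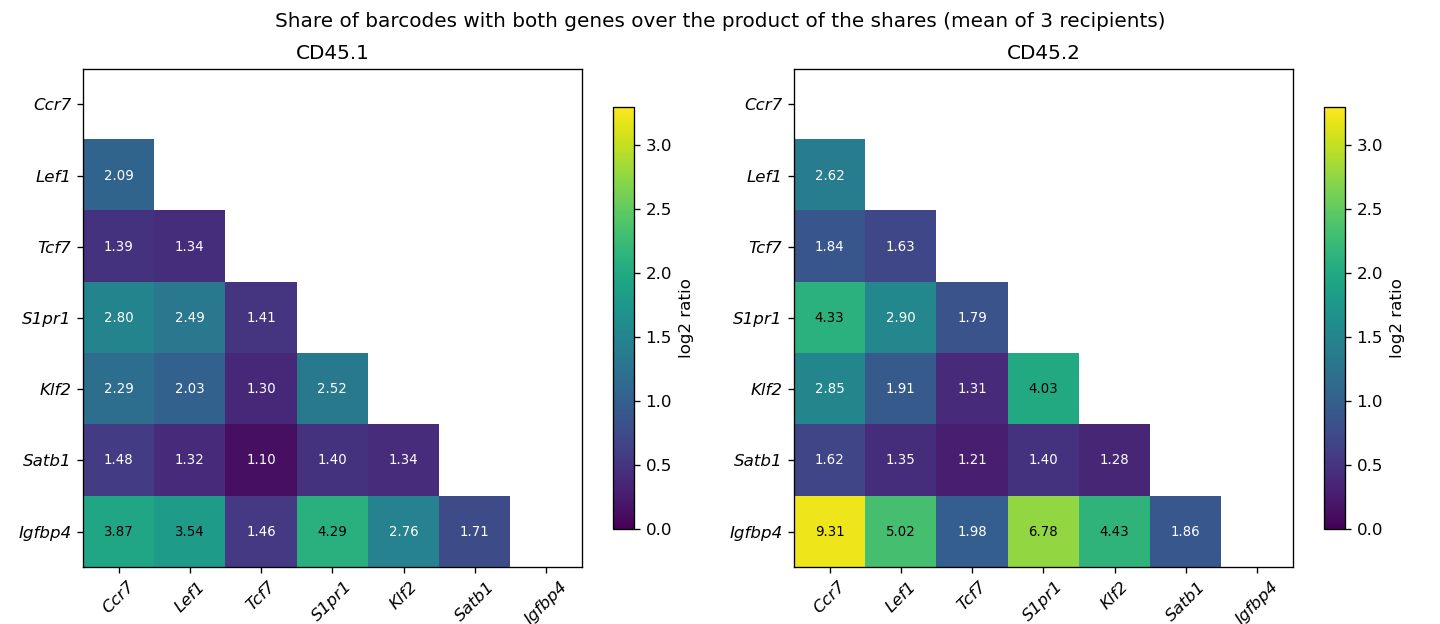
Observed share of barcodes with both genes divided by the product of their single shares, mean of 3 recipients, for the 21 pairs in CD45.1 (left) and CD45.2 (right) cells; colour is the log2 ratio. The pairs of Igfbp4 with Ccr7 and S1pr1 are the brightest in both donors' panels, and Tcf7 with Satb1 is the darkest.

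Barcodes with at least 3 of the genes differed from those with 0 in what else they carried. This is a description with no test, since the 7 genes chose the barcodes. The share of all genes that differed in the same way was not computed, so the list counts have no background here. In CD45.2 cells 16 of 18 naive and quiescence genes were higher in them in all 3 recipients and 14 of 16 effector and residence genes lower. In CD45.1 cells it was 11 of 18 and 13 of 16. The 12 recirculation genes were mixed, with 7 higher and 3 lower in all 3 recipients of CD45.2 cells and 5 higher and 3 lower in CD45.1 cells. Klf3 averaged 143 CPM (SD 33.7) against 43.5 CPM (SD 10.8) in CD45.2 barcodes. Ccr9 went the other way, 122 CPM (SD 29.1) against 806 CPM (SD 138) in CD45.2 barcodes. Cd69, whose product holds S1PR1 inside the cell, averaged 353 CPM (SD 203) against 770 CPM (SD 487) there and was lower in 3 of 3 recipients. S100a4 was the one effector and residence gene that was higher in all 3 recipients of CD45.2 barcodes.

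**Figure D5:**
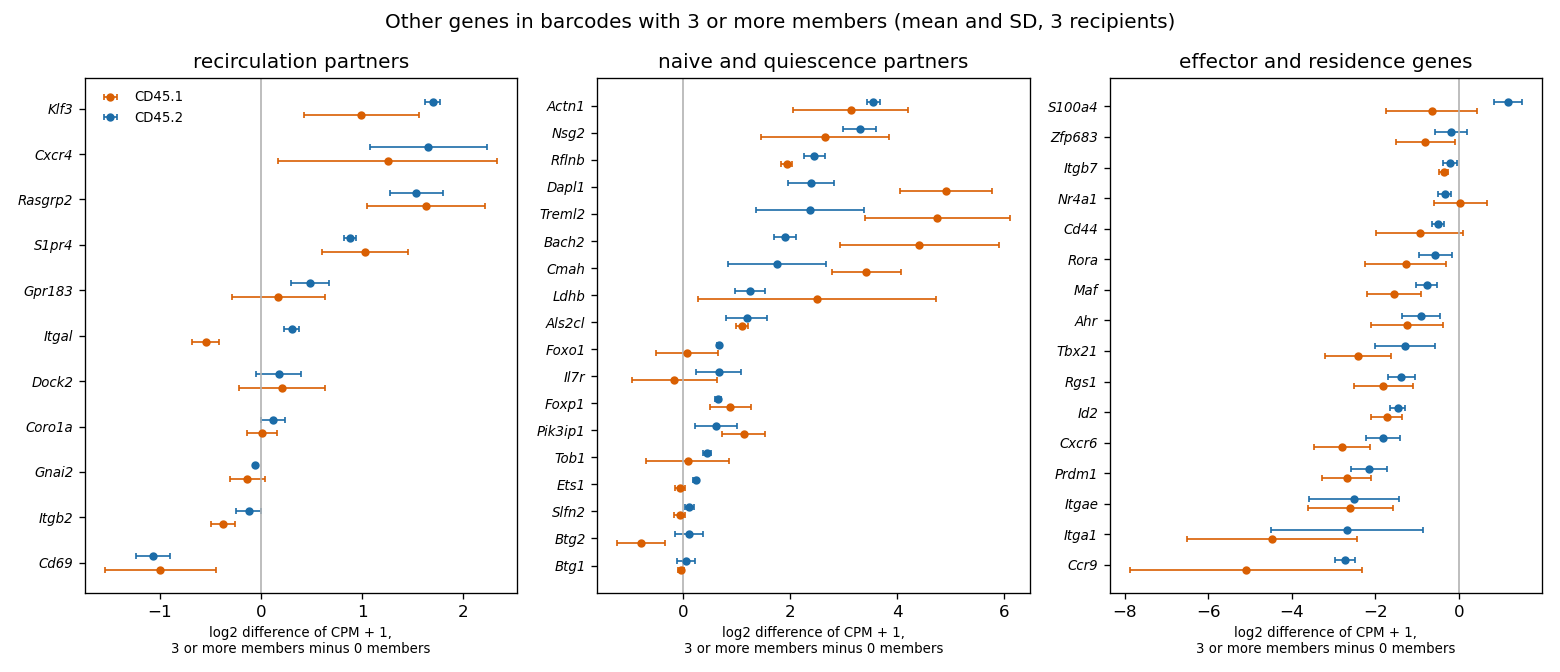
Log2 difference of CPM + 1 between barcodes with 3 or more and with 0 of the 7 genes (horizontal axis), for the listed recirculation, naive and quiescence, and effector and residence genes (vertical axis), mean and SD over 3 recipients by donor. Cd69 is the farthest to the left among the recirculation genes drawn; Ccr9 and Itga1 are the farthest left among effector and residence genes.

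Cd3e, a part of the T cell receptor complex, was found in 90.9% to 95.7% of the barcodes with at least 3 of the genes in 3 recipients and both donors before thinning. In barcodes with 0 of the genes it was found in 97.5% to 100%, and its CPM was higher there in each recipient and donor. Of 9 listed T cell genes, 4 were lower in the barcodes with at least 3 in all 3 recipients of each donor. In the same sense 2 were higher in CD45.1 and 1 in CD45.2 cells. In the barcodes with at least 3 of the genes, the summed B cell list ranged from 13.7 to 47.2 CPM. The plasma cell list ranged from 2.32 to 24.8 CPM and the myeloid list from 75.5 to 145 CPM. In barcodes with 0 of the genes the ranges were 0 to 366, 9.93 to 203 and 138 to 345 CPM. The B cell list was nevertheless higher in the CD45.1 barcodes with at least 3 of the genes in recipient 1 (38.5 against 9.93 CPM) and recipient 4 (13.7 against 0 CPM). Cd8a had 0 UMIs in the CD45.1 barcodes with at least 3 genes of recipients 1 and 2 and 2 UMIs in the 33 of recipient 4, where the CD8 T cell list summed to 64.1 CPM against 85.2 CPM in barcodes with 0 of the genes. In recipients 1 and 2 that list was higher in the CD45.1 barcodes with at least 3, at 14.4 against 4.41 CPM and 4.96 against 2.27 CPM.

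Over the 26 sums of recipient, donor and population, with each recipient's mean removed, the genes whose log2(CPM + 1) followed a member most closely were sought among 7699 genes of at least 10 CPM on average. This is a description, and the sums share libraries. For S1pr1 the 3 closest were Ccr7, Lef1 and Klf2, each at r = 0.87, and for Klf2 the closest were S1pr1 (0.87), Rasa3 (0.86) and Gm2682 (0.81). Igfbp4 was closest to S1pr1 (0.86), Rasa3 (0.82) and Klf2 (0.79), and Satb1 to Ccr7, Atp1b3 and Bach2, each at 0.84. Lef1 followed Dgka (0.92), a brake on diacylglycerol signalling, then Arhgap15 (0.91) and Naca (0.89). Tcf7 followed Dennd2d (0.96), Nsg2 (0.92) and St8sia1 (0.90) and was the member least like the rest, with r = 0.29 to Igfbp4 and 0.33 to Klf2. Ccr7 followed Adk (0.88), the adenosine kinase gene, Sptbn1 (0.87) and Cd2ap (0.87).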

How the data were processed

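The deposited matrices hold raw UMI counts for each gene or antibody tag in each barcode, unnormalized per the file headers. Per the submitters' processing notes the authors used Cell Ranger 6.1.1 and build mm10, and per the labels' protocols the libraries were 10x Genomics 3' libraries. The sources used here do not give the annotation used for counting. The members, the comparison lists and the tests were chosen with earlier results of these data known. The rule for named genes was all 7 members, listed genes that passed the test in the donor comparison of all cells or among CD45.2 populations, and for each member the 3 genes most like it. One listed recirculation gene enters the list counts and is otherwise not reported here.

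Raw counts were summed per recipient, donor and population (sums of at least 20 cells) and tested with edgeR 4.0.16 (R 4.3.3; TMM, default filter on low counts, quasi-likelihood test), with Benjamini-Hochberg adjustment over all genes tested. Donor fits hold the recipient, or the recipient and population pair, as a block, since both donors' cells came from the same animal. The correlation of the donors' deviations over 7634 genes was 0.30, 0.64 and 0.51 within recipients 1, 2 and 4 and -0.57 to 0.26 across recipients. The 0.26 joined CD45.1 cells of recipient 2 with CD45.2 cells of recipient 1 and was close to the 0.30 within recipient 1. With so few recipients these values are a description and no test of the block. Standard errors are derived from the quasi-likelihood F. Kept barcodes summed to 59442547, 58220437 and 8320864 UMIs. PCR duplicates are collapsed by UMIs, but intervals cover counting error only. Doublets were not called; an alternative dropped barcodes above 3 times their library's median UMIs. The fits were tested on simulated data. Other alternatives were DESeq2 1.42.0, RLE factors, no filter, leaving out each recipient, adding recipient 3, an 8-fold tag ratio, other population criteria and thinning. Leaving out barcodes with at least 5% of UMIs in B and plasma cell genes was chosen after seeing the data. In the donor fit of all cells, p-values rest on the spread between 3 recipients. The donor fit within populations holds 22 sums, of which several come from the same mouse, and pools their spread over populations. Its coefficients for Foxp3, Il17a, Ccl5 and Cxcr5 cells rest on 2 recipients. The p-values of the population fits therefore do not measure the spread between mice alone.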

Additional observations from a re-analysis of the deposited data

Results flagged for a closer look

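The donor difference of 5 of the 7 genes differed between populations, by a test of the difference itself (edgeR F test, adjusted over 10809 genes). Lef1 (adjusted p = 0.0024) fell by 2.30 on the log2 scale in other cells and by 2.05 in Foxp3 cells, while its coefficients in Cxcr5 (-0.33), Ccl5 (-0.61) and Il17a cells (-1.36) were not called. Tcf7 (adjusted p = 0.012) had its largest coefficient in Foxp3 cells (-1.79), against -0.41 in other cells and -0.02 in Cxcr5 cells. Klf2 (adjusted p = 0.0208) had -1.90 in other and -0.91 in Foxp3 cells, the latter not called. Igfbp4 (adjusted p = 0.0239) had -4.0 in other and -4.29 in Foxp3 cells, and no call elsewhere. S1pr1 (adjusted p = 0.0329) had -2.03 in other, -2.05 in Foxp3 and 0.01 in Cxcr5 cells.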

How the results depend on the processing

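The 7 donor calls of all cells held under each alternative that was run for all cells but the fit with no replicate block, which called 4. That fit called 422 of 10694 genes in either direction, against 1376 in the main fit. The pairing of the donors by animal is the reason for the block. The other member counts under alternatives, here and above, stand without the share of all genes called in the same fit. They therefore have no background. Within populations, members called lower for the donor became 1 in Foxp3 cells with no replicate block and 1 with stricter criteria. They became 2 in Il17a, 1 in Ccl5 and 1 in Cxcr5 cells with no filter, 1 in Il17a and 1 in Cxcr5 cells after thinning, and 1 in Cxcr5 cells with overlapping populations. Leaving out 1 recipient gave 0 to 4 in Il17a, 0 to 1 in Ccl5, 0 to 1 in Cxcr5, 4 to 5 in Foxp3 and 6 to 7 in other cells, and 3 to 7 for the test between populations. Leaving out barcodes rich in B and plasma cell genes, chosen after seeing the data, changed none of these counts. For populations against other cells in CD45.2, DESeq2 called 4 lower in Foxp3 and 0 in Cxcr5 cells. No replicate block gave 3 in Foxp3, 4 in Il17a, 3 in Ccl5 and 0 in Cxcr5 cells. Recipient 3 added gave 1, and thinning 1, lower in Cxcr5 cells, stricter criteria 1 higher there, and leaving out 1 recipient 4 to 7 lower in Foxp3 and 1 to 2 in Cxcr5 cells. In CD45.1 Foxp3 cells, 6 were lower with no filter, 1 with no replicate block, 4 with overlapping populations and 4 after thinning, and in Cxcr5 cells 0 after thinning. The mean log2 odds of barcodes with several genes was -1.53 for at least 2 and -2.93 for at least 4, and -2.40 to -1.84 with 1 recipient left out. Thinning to 2000 UMIs moved the CD45.1 co-detection median to 1.86. The causes were not tested.

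Signs changed only for values not called. For the donor in Cxcr5 cells, Tcf7 became 0.0186 with no filter, 0.0046 without high-UMI barcodes and 0.43 after thinning, and S1pr1 -0.0285 with RLE, -0.10 without high-UMI barcodes and -0.52 with overlapping populations. In Il17a cells Ccr7 became 0.0073 with DESeq2 and S1pr1 0.0021 with stricter criteria. In Ccl5 cells Satb1 became -0.0117 with overlapping populations, S1pr1 0.17 after thinning and Klf2 0.0579 after thinning. Satb1 in Foxp3 cells became 0.0099 after thinning. For CD45.1 Cxcr5 cells against other cells, Ccr7 became -0.0397 with DESeq2 and Satb1 0.0583 after thinning. With 1 recipient left out, the donor coefficient ranged in Il17a cells from -1.20 to 2.30 for Ccr7, -1.62 to 0.84 for S1pr1, -0.52 to 0.31 for Satb1 and -0.72 to 6.55 for Igfbp4. It ranged in Ccl5 cells from -0.28 to 0.75 for Satb1 and -0.18 to 4.37 for Igfbp4, and in Cxcr5 cells from -1.92 to 1.77 for Ccr7, -0.19 to 0.58 for S1pr1, -0.54 to 0.22 for Satb1 and -0.10 to 0.11 for Tcf7. Not run were recipient 3 in the donor fit within populations and in CD45.1 populations (too few cells), and CD45.1 populations without recipient 1 or 2 (no residual degrees of freedom). Thinning was not run for the donor fit of all cells.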

Other observations

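Recipient 3, which entered only as an alternative, held 30 CD45.1 and 3555 CD45.2 barcodes. Its CD45.1 cells, with 7 to 115 UMIs per gene, measured 66.1 CPM of Ccr7, 174 of S1pr1, 282 of Klf2, 129 of Lef1, 264 of Tcf7, 400 of Satb1 and 24.3 of Igfbp4. The CD45.2 cells measured 61.6 CPM of Ccr7, 22.6 of S1pr1, 163 of Klf2, 24.4 of Lef1, 119 of Tcf7, 106 of Satb1 and 4.42 of Igfbp4. Ccr7 was nearly level between the donors there, unlike in the other recipients, and the other 6 genes were lower in the CD45.2 cells. The median of 10057 UMIs in its 2783 barcodes that met several criteria lay above the 3478 of its 153 other cells.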
